A study of Mus musculus with 2 samples.

Results

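The region around Myb and Hbs1l on mouse chromosome 10 was described through the CTCF peaks that lie in it. Its members were the peaks of the optimal list whose summits fell between the outer ends of Ahi1, Myb and Hbs1l, with 50 kb added on each side. The optimal list and the shorter conservative list are the deposited lists that passed a threshold on the irreproducible discovery rate (IDR), a measure of agreement between ranked peak lists. A peak of the optimal list need not be in each replicate's own list: 93.5% had a peak within 100 bp in both. The window ran from 20902547 to 21418898 on build mm10 and held 23 of the 50909 optimal peaks. Of these, 7 lay in the 135 kb between Myb and Hbs1l and 16 in the rest of the window.

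CTCF-bound DNA was captured by immunoprecipitation and sequenced (ChIP-seq) from the livers of B6NCrl mouse embryos at day 14.5. The livers had been pulverised and pooled over several dissections and both sexes, with no treatment or genotype named in the labels. The 2 libraries form 1 group with no contrast. The labels number them as biological replicates but give both the same biosample. Nothing says that they came from separate pools, so the SDs below may cover only library making and sequencing. A liver at this age holds blood-forming cells beside hepatocytes and other cells. In such bulk tissue, occupancy in more cells and stronger occupancy per cell cannot be told apart. Peak lists carry no expression values, so the tissue was not checked against marker genes.

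CTCF is a zinc finger protein that binds a long, oriented DNA motif and, together with cohesin, anchors chromatin loops and insulates neighbouring genes. Loops tend to join sites whose motifs point to each other. Myb encodes a transcription factor that blood progenitors need for their growth, and it is switched down as red cells mature. The sequence between Myb and Hbs1l is known to carry distal enhancers of Myb that act in red cell progenitors. Hbs1l encodes a GTPase that helps to rescue stalled ribosomes, and Ahi1 encodes a protein of the primary cilium.

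Ahi1 lay at 20952547 to 21080429 on the plus strand, Myb at 21124935 to 21160984 on the minus strand and Hbs1l at 21295979 to 21368898 on the plus strand, per GENCODE vM21. Myb and Hbs1l thus point away from each other, and the interval between them lies upstream of both. Distances from Myb below are counted from its outermost annotated start, and upstream of Myb means toward Hbs1l.

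The sites found at peaks in and next to the interval are shown first, because their strands give the motif directions between the genes. The direction of binding itself was not measured. Each was read from the RefSeq copy of the mm10 chromosomes, 5′ to 3′ on the strand of the motif, and capitals mark the 14 bases of the core CTCF motif with 15 bases on either side. The core motif was searched on both strands within 50 bp of each summit with at most 2 mismatches. The site 7.78 kb upstream of Myb had 3 mismatches and was found by a position weight matrix. The matrix was learned from core matches with at most 1 mismatch at optimal peaks on the other chromosomes. Its threshold was set to pass the same share of all optimal peaks as had a core match, 70.8%. Passing the matrix is thus not evidence independent of the core motif. At 28.2 kb, a match of 2 mismatches shifted by 10 bp overlapped the one shown.
Myb intron 1, chr10:21158225-21158268, plus strand: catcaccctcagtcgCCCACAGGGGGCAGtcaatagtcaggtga
7.78 kb upstream of Myb, chr10:21168726-21168769, plus strand: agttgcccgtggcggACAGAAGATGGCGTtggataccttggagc
28.2 kb upstream of Myb, chr10:21189190-21189233, minus strand: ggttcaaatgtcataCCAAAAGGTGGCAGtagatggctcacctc
92.0 kb upstream of Myb, chr10:21252967-21253010, plus strand: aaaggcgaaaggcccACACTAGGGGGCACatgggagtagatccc
96.4 kb upstream of Myb, chr10:21257409-21257452, plus strand: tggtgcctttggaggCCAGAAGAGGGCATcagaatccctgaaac
Hbs1l intron 5, chr10:21337393-21337436, minus strand: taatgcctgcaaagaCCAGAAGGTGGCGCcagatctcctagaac

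The remaining sites belong to the strongest peaks of the rest of the window. The peak in Ahi1 intron 6 held a pair of mismatch-free matches 64 bp apart on the same strand, with like flanks, so both are shown in 1 run.
36.8 kb before Ahi1, chr10:20915686-20915729, plus strand: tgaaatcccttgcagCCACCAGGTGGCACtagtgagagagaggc
3.99 kb before Ahi1, chr10:20948532-20948575, minus strand: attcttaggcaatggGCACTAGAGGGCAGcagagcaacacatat
Ahi1 intron 6, chr10:20966216-20966323, minus strand: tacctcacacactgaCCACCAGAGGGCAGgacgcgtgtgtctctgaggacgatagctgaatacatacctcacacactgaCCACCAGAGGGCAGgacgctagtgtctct
Ahi1 intron 15, chr10:20992824-20992867, plus strand: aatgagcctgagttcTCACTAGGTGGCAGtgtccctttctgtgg
Aldh8a1 intron 1, chr10:21378779-21378822, plus strand: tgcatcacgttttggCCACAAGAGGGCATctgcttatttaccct

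The interval between Myb and Hbs1l held 7 optimal peaks in 2 groups. On the Myb side, 4 peaks stood 7.78, 18.0, 28.2 and 35.8 kb upstream of the Myb start. On the Hbs1l side, 3 peaks stood within 4.43 kb of sequence, at 92.0, 93.7 and 96.4 kb, or 43.0, 41.3 and 38.5 kb before the outermost Hbs1l start. The 56.2 kb between the groups held no optimal peak, and neither did the last 38.5 kb before Hbs1l. All 7 had a peak within 100 bp in both replicates' deposited lists and a conservative summit within 100 bp. Among all optimal peaks 93.5% had the former and 86.4% the latter. For the window as a whole both counts were 21 of 23.

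**Figure D1:**
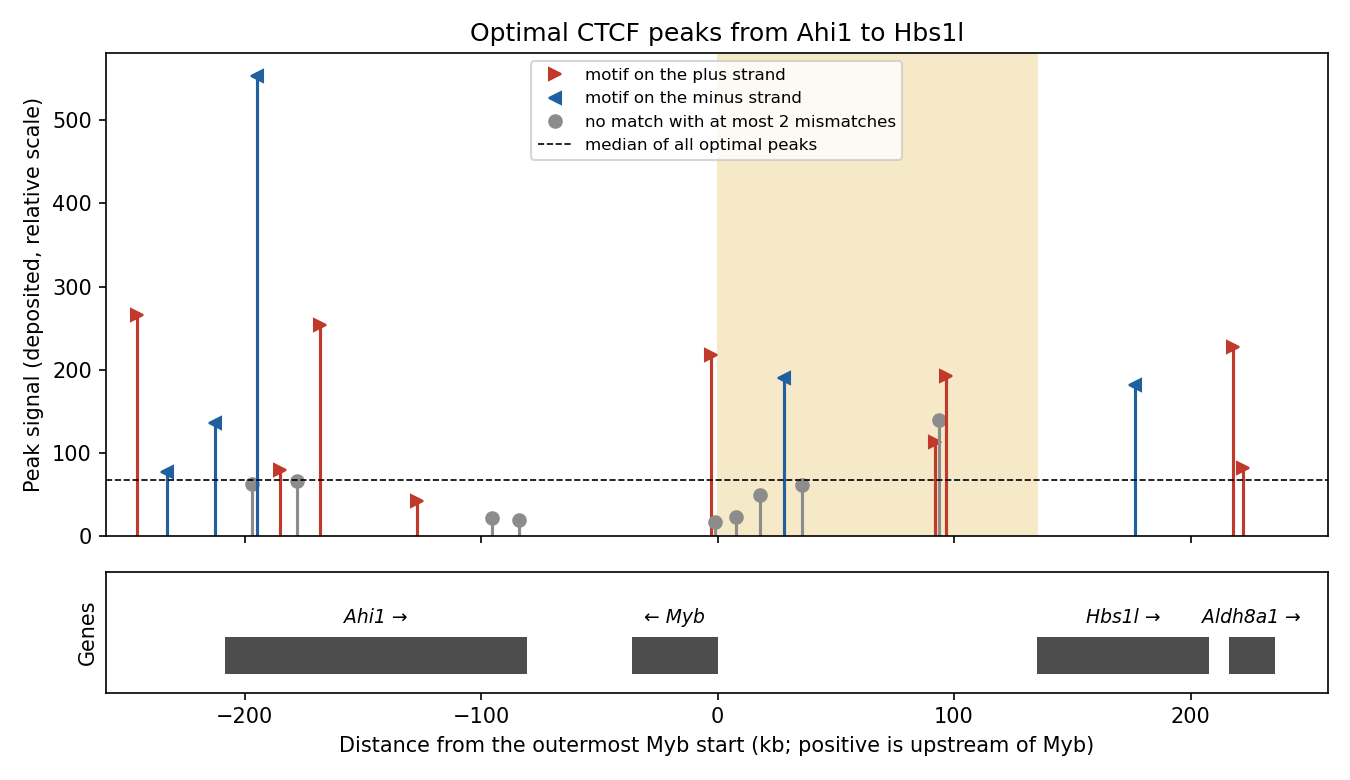
Optimal CTCF peaks of the window by distance from the outermost Myb start (kb, horizontal) and deposited peak signal (vertical, relative scale); triangles point along the strand of the motif, grey circles have no match with at most 2 mismatches, the dashed line is the median of all optimal peaks, and the shaded band is the Myb to Hbs1l interval. The highest peak, at 553, lies in Ahi1, and the 7 peaks of the interval lie between 24.0 and 193.

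The count of 7 was set beside other gaps of like length. Of 1207 gaps of 100 to 200 kb between neighbouring protein-coding genes, 115 held at least 7 optimal peaks, or 9.53%, with a median of 2 and a highest count of 18. The interval held 51.9 peaks per Mb, against 19.2 over the genome outside assembly gaps. The gap between Ahi1 and Myb, 44.5 kb long, held none. Of 2647 gaps of 30 to 60 kb, 38.1% held none either.

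The signal of a peak is the value of the authors' peak caller in the pooled data, whose scale the sources used here do not give, and it has no replicates of its own. Relative signal is the signal of a replicate's own peak divided by the median of that replicate's 50909 strongest peaks, so 1 is the level of a typical strong peak.

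In the interval the highest pooled signal lay 96.4 kb upstream of Myb, at 21257354 to 21257543, in intergenic sequence with the summit on repeat-masked bases. Its signal was 193, at the 79.3 percentile of optimal peaks, and its relative signal was 3.01 in replicate 1 and 2.84 in replicate 2 (2.92 ± 0.119, SD, n = 2). Almost equal was the peak 28.2 kb upstream, at 21189078 to 21189294, with a signal of 190. Its relative signal was 2.65 in replicate 1 and 3.03 in replicate 2 (2.84 ± 0.267, SD, n = 2). The replicates put these peaks in opposite orders, so they could not be ranked. The summit at 28.2 kb lay 13 bp from the start of Gm40608, a long noncoding RNA gene on the minus strand.

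Next in signal was the peak 93.7 kb upstream of Myb, at 21254698 to 21254781, with 140 and relative signals of 2.10 and 2.07 in replicates 1 and 2 (2.08 ± 0.0197, SD, n = 2). No match with at most 2 mismatches lay near its summit, and the closest sequence had 4. Its neighbour at 92.0 kb, at 21252973 to 21253081, had a signal of 113 and relative signals of 1.82 and 1.58 (1.70 ± 0.175, SD, n = 2). That summit lay 892 bp from a start of Gm33728, another long noncoding RNA gene, and its site had 1 mismatch. In both replicates the peak at 93.7 kb was higher than its motif-bearing neighbour at 92.0 kb.

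The other 3 peaks of the interval lay below the median signal of the optimal list, which was 68.0. At 35.8 kb, in intergenic sequence at 21196645 to 21196960, the signal was 62.3 and the relative signals were 1.25 and 0.670 in replicates 1 and 2 (0.961 ± 0.412, SD, n = 2). At 18.0 kb, in an intron of Gm40608 at 21178861 to 21179176, the signal was 50.3 and the relative signals were 0.928 and 0.585 (0.756 ± 0.242, SD, n = 2). Closest to Myb, at 7.78 kb in intergenic sequence at 21168602 to 21168917, lay the weakest peak of the interval, its summit repeat-masked. It had a signal of 24.0, at the 14.9 percentile, and relative signals of 0.378 and 0.359 (0.368 ± 0.0131, SD, n = 2). All 3 had 3 mismatches at their best match, and only that at 7.78 kb passed the matrix. Below the leading pair, both replicates gave the same order of the 5 other peaks.

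**Figure D2:**
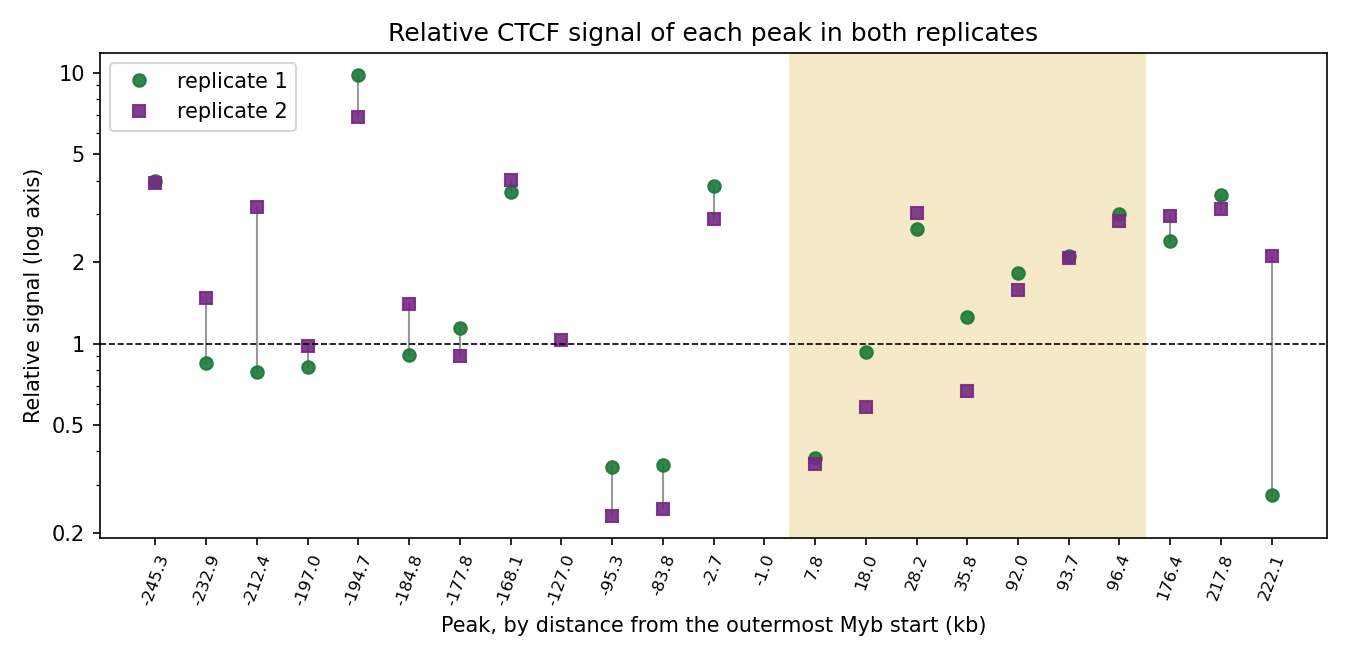
Relative signal (vertical, log axis) of the window's peaks in replicate 1 (circles) and replicate 2 (squares), ordered by distance from the outermost Myb start (kb), with the interval shaded and a dashed line at 1. In the interval the replicates lie farthest apart at 18.0 and 35.8 kb. Over the window the peaks at -212.4 and 222.1 kb differ most, the one at -127.0 kb has replicate 2 only, and the one at -1.0 kb has no point.

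Myb itself held 2 optimal peaks. Of 5152 protein-coding genes of 20 to 50 kb, 37.0% held at least as many, with a median of 1. Both peaks of Myb lay in intron 1 of its principal transcript, and they differed widely. The stronger lay 2.72 kb downstream of the outermost start, at 21158139 to 21158360, with a signal of 218. Its relative signals were 3.82 and 2.89 in replicates 1 and 2 (3.36 ± 0.662, SD, n = 2), and its site had 2 mismatches on the plus strand, against the direction of Myb transcription. The other, at 21159852 to 21160167, was the only optimal summit within 1 kb of a start of the 3 genes, 840 bp from the nearest Myb start. It was also the weakest of all 23 peaks, with a signal of 17.3, at the 5.62 percentile. No replicate peak lay within 100 bp of it, no conservative summit either, and its best match had 3 mismatches. The nearest peak of replicate 1 lay 131 bp away with a relative signal of 0.417, and the nearest of replicate 2 lay 990 bp away with 0.138. Among 21938 protein-coding genes, 35.2% had an optimal summit within 1 kb of a start.

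Hbs1l held 1 optimal peak in its 72.9 kb, in intron 5 of the principal transcript at 21337311 to 21337493. Its summit base was repeat-masked, but the middle of its motif match was not. The signal was 181, and the relative signals were 2.39 and 2.97 in replicates 1 and 2 (2.68 ± 0.412, SD, n = 2). The site had 1 mismatch and lay on the minus strand, pointing toward Myb. No optimal summit lay closer than 7.28 kb to any annotated start of Hbs1l. Of 2515 protein-coding genes of 50 to 100 kb, 42.2% held at most 1 optimal peak.

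Ahi1 held 8 optimal peaks over 128 kb, all in introns, and among them the strongest of the window. Of 1494 protein-coding genes of 100 to 200 kb, 10.7% held at least as many, with a median of 3. The strongest peak, in intron 6 of the principal transcript at 20966112 to 20966455, had a signal of 553 and was number 151 of the optimal list. Relative signals were 9.82 and 6.88 in replicates 1 and 2 (8.35 ± 2.08, SD, n = 2), with ranks of 156 and 179 among each replicate's 300000 peaks. In both replicates it exceeded every other peak of the window, and its matches were the mismatch-free pair printed above. Intron 15 held the next of Ahi1, at 20992748 to 20992986, with a signal of 254 and relative signals of 3.63 and 4.01 (3.82 ± 0.265, SD, n = 2).

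Before Ahi1, at 20915602 to 20915844, lay the second peak of the window by pooled signal, at 266. Its relative signals of 3.98 and 3.92 in replicates 1 and 2 (3.95 ± 0.0404, SD, n = 2) were nearly equal, and its plus-strand site had no mismatch. Replicate 2 put the peak in Ahi1 intron 15 above it, so the pair could not be ranked. The peak 3.99 kb before the Ahi1 start, at 20948462 to 20948624, had a signal of 136 but relative signals of 0.785 in replicate 1 and 3.20 in replicate 2 (1.99 ± 1.71, SD, n = 2). It ranked 29460 in replicate 1 and 8152 in replicate 2. Beyond Hbs1l, intron 1 of Aldh8a1, an aldehyde dehydrogenase gene, held a peak at 21378675 to 21378890 with a signal of 228. Relative signals there were 3.53 and 3.15 (3.34 ± 0.269, SD, n = 2).

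The other 8 peaks had signals from 19.6 to 81.8, and 4 of them had a match. Most lay in introns of Ahi1 or Aldh8a1, 7 of the 8. A pair of these was picked out after the values were seen, since the replicates disagreed. In intron 3 of Aldh8a1, at 21382919 to 21383234, the relative signal was 0.276 in replicate 1 and 2.11 in replicate 2. The other lay in intron 18 of Ahi1, at 21033842 to 21034157, with its summit 207 bp from a start of the gene Gm10826. There replicate 2 had 1.03 and replicate 1 had no peak within 100 bp. Replicate 1's nearest peak there lay 192 bp away with 0.323. Over the 21 peaks with values in both replicates, relative signals had a Spearman's rho of 0.725. These points share libraries and neighbourhood and are not independent. In 18 of the 23 peaks both replicates ranked the peak among their 50909 strongest, against 76.7% of all optimal peaks, and all 7 of the interval were among the 18.

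**Figure D3:**
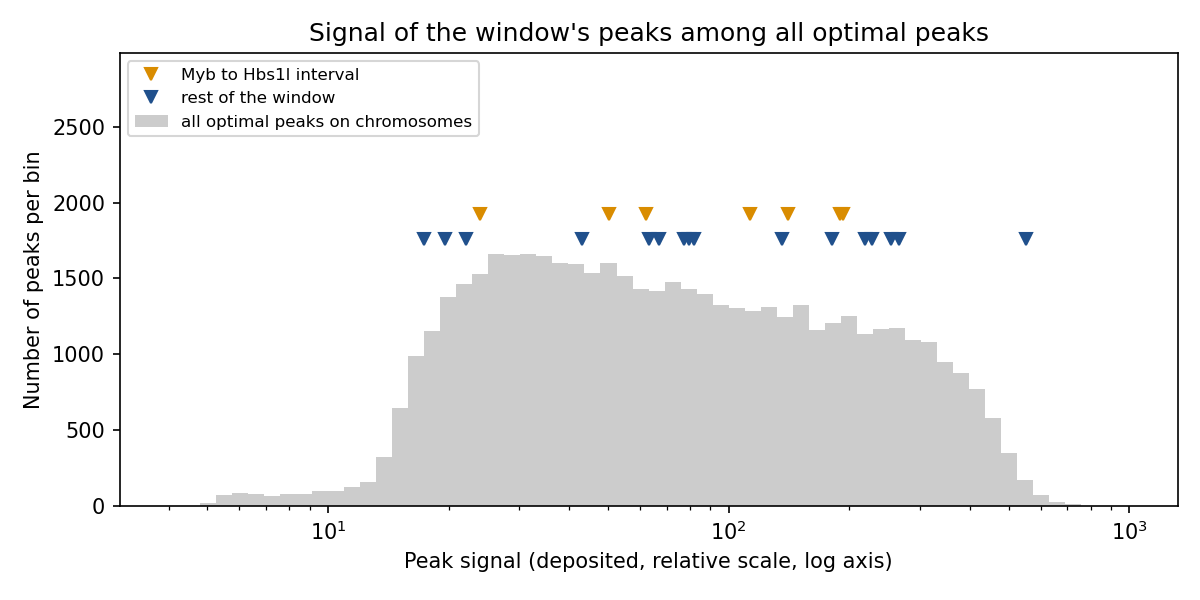
Number of optimal peaks per bin (vertical) by deposited signal (horizontal, log axis) for all chromosomes in grey, with markers for the peaks of the Myb to Hbs1l interval (upper row) and of the rest of the window (lower row). The window's peaks run from 17.3 to 553 and spread over most of the range, and their marker heights carry no value.

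Over the window, 14 of 23 peaks exceeded the median signal of the optimal list (60.9%, Wilson 95% interval 40.8 to 77.8), where 50% do so by definition. In the interval it was 4 of 7. A motif match with at most 2 mismatches lay near 14 of 23 summits, also 60.9%, against 70.8% of all optimal peaks, which lies inside the Wilson interval. The interval had 3 of 7 (42.9%, Wilson 95% interval 15.8 to 75.0) and the rest of the window 11 of 16 (68.8%, 44.4 to 85.8). These intervals overlap and cover counting error only. Mismatch-free matches stood at 2 of the 23 peaks, against 10.4% of all optimal peaks, and at none of the 7.

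Peaks with a match had a higher median signal in the window and in the whole list, and the ranges overlapped. In the window, peaks with a match had a median of 186, with a range from 43.1 to 553. Those without a match had a median of 50.3, from 17.3 to 140. Over all optimal peaks these medians were 90.0 and 35.6. Peaks without a match also lay in sequence of higher GC content, with a median of 52.2% within 100 bp of the summit, against 47.3% for those with one. The corresponding values of the whole list were 53.7% and 49.3%. Summits on repeat-masked sequence numbered 5 of 23, against 22.5% in the list, and summits within 1 kb of any annotated start, noncoding genes included, numbered 4 of 23, against 22%.

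Motifs on both strands occurred along the region. Among the 14 peaks with a match, 9 had it on the plus strand and 5 on the minus strand. The strand split over all optimal peaks is not given here, so these counts describe the window only. The plus-strand site in Myb intron 1 and the minus-strand site 28.2 kb upstream of Myb pointed to each other across 30.9 kb, over the Myb start, the weak peak beside it in intron 1 and the peaks at 7.78 and 18.0 kb. The site in Myb intron 1 had the lowest matrix score of the 14 peaks with a match, 9.88, close to the threshold of 9.51. Pairs were counted between matches with at most 2 mismatches, so the plus-strand matrix site at 7.78 kb was not among them. The minus-strand site at 28.2 kb and the plus-strand site at 92.0 kb pointed away from each other across 63.8 kb. At 92.0 and 96.4 kb both sites lay on the plus strand, and the site at 96.4 kb faced the minus-strand site in Hbs1l intron 5 across 80.0 kb, over the Hbs1l start. Of the 13 neighbouring pairs with a match, 3 were convergent, 3 divergent and 7 on the same strand. Over 36000 such pairs in the genome these made up 24.5%, 24.5% and 51.0%. Peak lists do not show which sites touch.

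Many matches to the motif in the window had no optimal summit within 50 bp. Of the 3 mismatch-free matches in the window, 2 lay within 50 bp of an optimal summit, against 76.3% over the genome. The remaining match was the partner of the pair in Ahi1 intron 6 and lay inside the same optimal peak. The interval contained 7 matches with 1 mismatch, and 1 of them, at 92.0 kb, lay within 50 bp of an optimal summit (14.3%, Wilson 95% interval 2.57 to 51.3). Over the genome 25.3% of such matches did. The whole window contained 14, of which 5 lay at an optimal summit (35.7%, Wilson 95% interval 16.3 to 61.2). With 2 mismatches, 3 of 16 matches in the interval and 9 of 71 in the window lay at an optimal summit, against 3.73% over the genome. Of the 3 in the interval, the overlapping matches at 28.2 kb share 1 peak. They are also among the 9 of the window, as is a match that overlaps the mismatch-free site 36.8 kb before Ahi1. Only 7 window peaks had 2 mismatches at their best match. The genome's share was counted in the same way. The interval was thus below the genome's share for 1 mismatch and above it for 2, and neither was tested.

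Beyond the optimal peaks, each replicate's list of 300000 held further peaks in the interval. In all there were 27 in replicate 1 and 32 in replicate 2, or 200 and 237 per Mb, against 113 per Mb over the genome in both lists. In each replicate 7 of them stood at the optimal peaks, which left 20 and 25 others. Of the remainder only 3 were shared by both replicates within 100 bp, at 73.4, 107 and 126 kb upstream of Myb, and none of the 3 had a motif match. The strongest of these, at 73.4 kb, had relative signals of 0.279 and 0.219 in replicates 1 and 2 (0.249 ± 0.0425, SD, n = 2) and was in the conservative list. The others had means of 0.217 ± 0.0126 and 0.141 ± 0.0552 (SD, n = 2). In each replicate, all of these lay below its weakest peak at an optimal summit, which had 0.378 in replicate 1 and 0.359 in replicate 2.

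**Figure D4:**
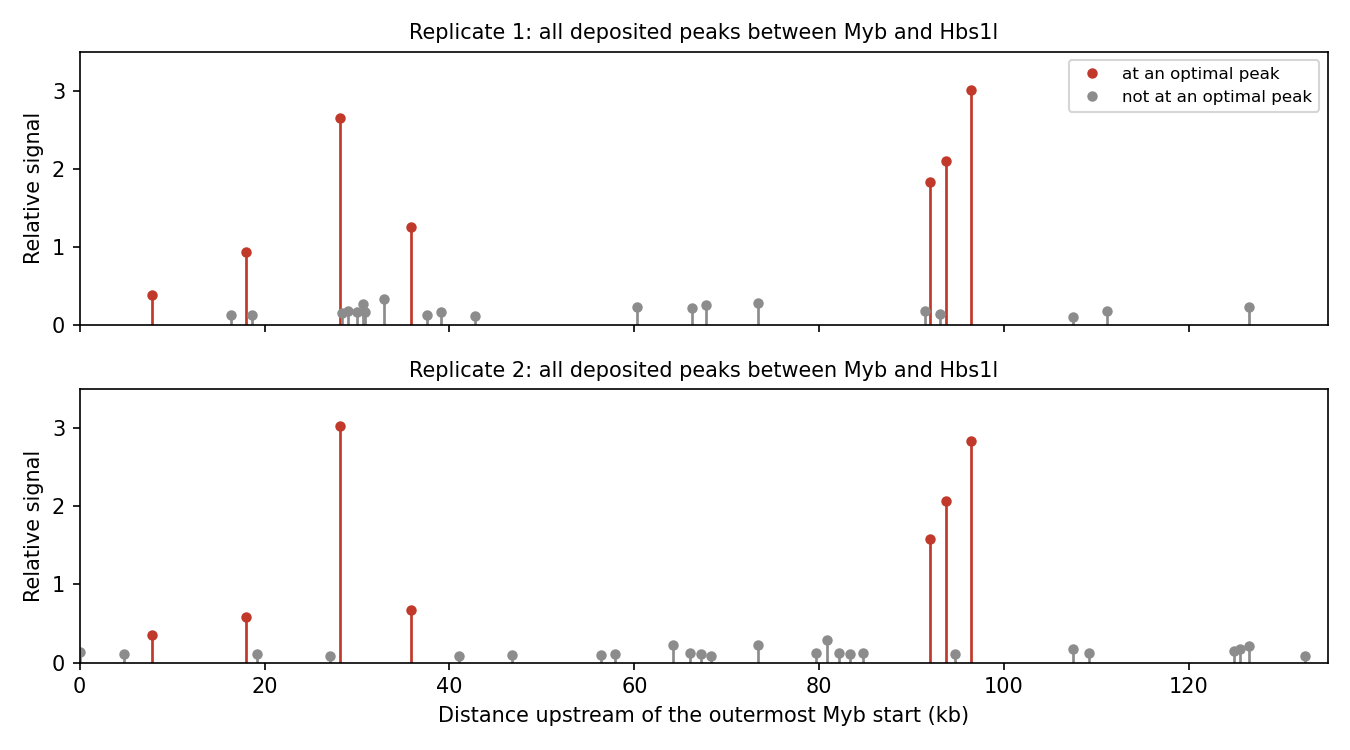
Every deposited peak of replicate 1 (upper panel) and replicate 2 (lower panel) between Myb and Hbs1l, by distance upstream of the outermost Myb start (kb) and relative signal (linear axis), with peaks at an optimal summit in red and others in grey. The 7 red peaks of each replicate stand above all grey ones, which reach 0.329 in replicate 1 and 0.293 in replicate 2.

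The same description of a pair of other blood factor loci gave 13 optimal peaks around Tal1, Stil and Pdzk1ip1, or 67.1 per Mb, and 8 around Runx1, or 24.6 per Mb. The Ahi1, Myb and Hbs1l window had 44.5 per Mb. Its strongest peak, at 553, was close to that of the Tal1 window, at 547, and the Runx1 window reached 472. Differences between windows were not tested. Just outside the described window, optimal peaks lay 7.19 kb before its left end, with a signal of 48.5, and 2.33 kb beyond its right end, with a signal of 196.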

How the data were processed

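Per the deposited text files, the authors' peak lists are narrowPeak tables on mm10, called against a control. They comprise 1 list per replicate, 1 for both replicates pooled, and the optimal and conservative IDR lists derived from these. The peak caller and read depth are not given in the sources used here, and lists of exactly 300000 peaks carry no information on depth. The deposited signal is the caller's value per peak and was compared within lists only.

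Summits (start plus offset) were placed on GENCODE vM21 and the RefSeq GRCm38.p6 sequence with Python 3.11.15. Peaks on unplaced scaffolds were left out of shares. A promoter summit lay within 1 kb of any annotated start. Replicate peaks were matched within 100 bp. The motif and summit matching were tested on simulated data. No test between groups was possible, and shares carry Wilson 95% intervals.

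Described singly were all interval peaks, peaks within 1 kb of a start of the 3 genes and the 10 strongest peaks. The window, genes and rules were chosen with earlier results of these data known. Alternatives were the other lists, single replicates, other flanks, motif settings, summit distances and scalings. The control and signal tracks were not analysed here.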

Additional observations from a re-analysis of the deposited data

How the results depend on the processing

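The window held 22 peaks in the conservative list, 24 among the strongest of the pooled list, 21 with a flank of 20 kb and 27 with one of 100 kb. From single replicates, the counts were 22 to 23 in the window and 7 to 8 in the interval. The conservative list gave the interval 8 and the pooled list 7. Restriction to optimal peaks above the median signal left 14 in the window and 4 in the interval, by construction. With at most 1 mismatch, 7 window peaks had a motif match, with at most 3, 19, and with the matrix, 15. The matrix passed 70.8% of all optimal peaks by construction. Both replicates had a peak at 20 of 23 within 50 bp and at 22 within 200 bp. Shares of all optimal peaks at these mismatch limits and distances are not given here. These counts thus show only how the window's count depends on the setting. Relative signals of the 14 singly described peaks with values in both replicates depend on the scale. Division by the mean moved 13 of them by more than 1 SD, and a median over 2 times as many peaks moved all 14, since each changes the divisor itself. Read depth is unknown, so the absence of a peak was not separated from a lack of reads.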

Other observations

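The same 14 bases stood at a pair of the window's peaks, picked out after their sequences were seen. The word CCAGAAGAGGGCAT was the match 96.4 kb upstream of Myb, at 1 of the leading pair of peaks of the interval, and also the match in Ahi1 intron 18, where replicate 1 had no peak within 100 bp. It occurs 33670 times on the chromosomes, 100% of them in repeat-masked sequence, and 2155 copies, or 6.40%, had an optimal summit within 50 bp. The other 461288 matches with 2 mismatches had one in 3.53% of cases. Words of the window's other peaks were rarer, with shares on either side. The site in Hbs1l intron 5 occurs 70 times, with a summit at 62 copies, or 88.6%. The site at 92.0 kb occurs 30 times, with a summit at 13. The word of the strongest peak of the window, in Ahi1 intron 6, occurs 237 times, with a summit at 148, or 62.4%. At 28.2 kb the match nearest to the summit is the one shifted by 10 bp from the site printed above. That match occurs 22 times, with a summit only at this copy, or 4.55%, and copies of the printed site were not counted. The site in Myb intron 1 occurs 54 times, with a summit at 7, or 13.0%. The kind of repeat was not analysed here, and no test was made.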
